A study of Anopheles gambiae with 5 samples.

Results

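The regions described here are the islands of H3K27me3, the trimethylation of lysine 27 of histone H3, found in the midgut of the malaria mosquito Anopheles gambiae that lie away from every assembled locus. An island is a stretch of 200 bp windows rich in immunoprecipitated reads, joined across short gaps by the authors' caller and kept where the whole stretch exceeded the input control. Islands were taken that were shorter than 10000 bp and that shared no base with any assembled locus, from its lowest to its highest exon position, or with the 200 bp on either side of a locus start. The rule uses only the length and the position of an island, and 4790 of the 12939 islands met it (37.0%, 95% Wilson interval 36.2 to 37.9%). These 4790 are called distal islands below. The others under 10000 bp were 3209 islands that touched a locus start and 4023 that touched a locus away from its start, and 917 islands of 10000 bp or more made up the rest, of which 163 also lay outside every locus.

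All samples came from adult females of the Kisumu strain aged 6 to 8 days. Midgut chromatin gave 1 H3K27me3 library, 1 library of H3K27ac, the acetylation of the same lysine, and 1 input library, and RNA of midguts and of salivary glands gave 1 library each, which were assembled into a single set of loci. Each library was made from pooled tissue of several females. As each mark has 1 library, no difference below was tested between animals. Intervals are at the 95% level and cover only the counting of regions, which are not replicates and often neighbour each other. The loci are those assembled from these 2 tissues, 26835 on the 6 sequences used, of which 12882 hold a transcript matching or sharing part of an annotated gene. Outside a locus therefore means outside this assembly. No expression values were used here, so the midgut label was not set beside marker genes. Positions are those of AgamP4, counted from 1.

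Methylation of this lysine is written by the Polycomb repressive complex PRC2 and is known, mainly from Drosophila, as a mark of silent chromatin that spreads in broad domains over developmental genes. The same residue cannot be methylated and acetylated at once, and H3K27ac is found at active promoters and enhancers. In Drosophila, Polycomb complexes are recruited at elements that can lie far from the promoters they act on, so that methylated chromatin between genes is part of the usual picture.

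Distal islands were short. Their median length was 1999 bp (interval 1999 to 1999 bp, n = 4790), with quartiles of 1199 and 3199 bp, against 2999 bp for islands at a locus start (n = 3209) and 2199 bp for islands in a locus away from its start (n = 4023). Of the distal islands 19.1% were under 1000 bp and 6.05% were 6000 bp or longer, while the corresponding shares were 7.95% and 17.0% at locus starts. Part of this difference follows from the rule, since a longer island touches a locus more easily. In all, distal islands spanned 12067010 bp, which is 22.7% of the bases under H3K27me3 islands. At the length limit, 9 distal islands had the largest length allowed, 9999 bp, and 4 islands outside every locus had the next length above it, 10199 bp. Scores of the 9 just inside ran between 738 and 2313, and the 2 highest were on 3L from 24077801 to 24087799 (2313) and from 30846201 to 30856199 (1831). Scores of the 4 just outside ran between 870 and 1049, and the 2 highest were on 2R from 49144601 to 49154799 (1049) and from 234601 to 244799 (969). Beyond these 4, an island of 10399 bp outside every locus, on X from 11988201 to 11998599, scored 2218.

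Per unit of length, distal islands had about the same listed score as islands at locus starts. The deposited list gives each island a whole-number score, which grew with island length and was therefore divided by it. The median score per kb was 102 (interval 101 to 103) in distal islands, 104 (interval 102 to 105) at locus starts and 98.4 (interval 97.3 to 99.4) in loci away from the start. The intervals of distal islands and islands at starts overlapped in each length class but the longest, 6000 to 10000 bp, where distal islands had 107 (interval 104 to 111, n = 290) and islands at starts 116 (interval 112 to 120, n = 545). Below 1000 bp the medians were 113 in distal islands and 114 at starts. Scores of single distal islands ran between 39 and 2420 with a median of 198.

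**Figure D1:**
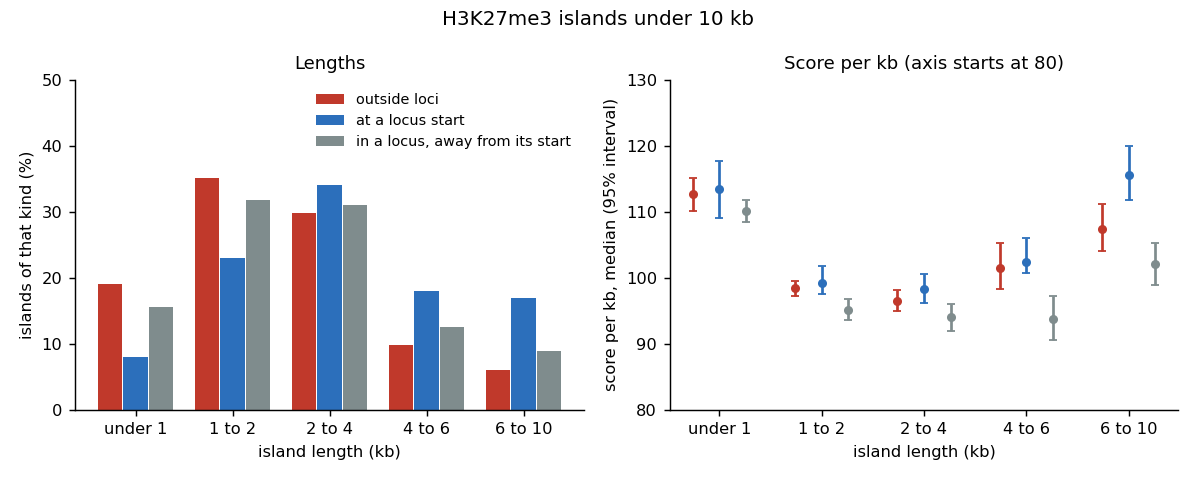
Left, the share of islands of each kind (y axis, %) by island length (x axis, kb) for distal islands (red), islands at a locus start (blue) and islands in a locus away from its start (grey), all under 10 kb. Right, the median score per kb (y axis, which starts at 80) for the same classes, with 95% order-statistic intervals as bars: the red and blue points lie close together below 6 kb, and at 6 to 10 kb they stand at 107 and 116.

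The strongest distal islands, ranked by score, lay mostly beside loci that carried H3K27me3 themselves. This was not particular to them. Of all distal islands with a locus on both sides, 80.3% had H3K27me3 on at least 1 flanking locus. Score grew with island length, so the ranking favoured long islands. The strongest were 5199 to 9999 bp long, against a median of 1999 bp over all distal islands. The highest score, 2420, belonged to the island on 3R from 35735401 to 35742599, in a locus-free gap of 127306 bp that held 14 distal islands. The flanking locus on its left, an unannotated locus 5869 bp away, was wholly under H3K27me3, and AGAP009540 on its right, 114238 bp away, had 52.8% of its length under the mark. On 2R the island from 41691601 to 41698999 scored 2180 and lay between AGAP003671 and an unannotated locus, both fully covered by H3K27me3.

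The island on 2R from 17108001 to 17113199 had the highest score per kb of the 10 strongest, 404.5, with a score of 2103. It lay 1068 bp from AGAP002178, a locus of the minus strand with 97.7% of its length under H3K27me3, and so upstream of that locus. It belonged to a chain of 9 islands, each within 2000 bp of the next, that spanned 156999 bp.

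In contrast to these, the island on 3R from 4198601 to 4204799 stood alone beside a locus that carried H3K27ac and no H3K27me3. Its score was 2028 over 6199 bp, and it was the only distal island in a gap of 8777 bp. The locus on its left, AGAP008016, began 957 bp away, had no H3K27me3 and carried H3K27ac on 61.6% of its length, and the nearest H3K27ac peak was 776 bp from the island. AGAP008017, on its right, had 15.9% of its length under H3K27me3 and 5.98% under H3K27ac.

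A further 4 of the 10 strongest islands had H3K27ac on a flanking locus or no H3K27me3 on one of them. The island on 2L from 34465001 to 34472799 (score 2200) lay 2842 bp from AGAP006592, which had 24.6% of its length under H3K27me3 and 16.0% under H3K27ac. The island on 3L that ends at 24087799 was flanked by AGAP011416, which carried neither mark, and by an unannotated locus wholly under H3K27me3. The island on 2L from 26034601 to 26043999 (score 1955) had AGAP006069 with 55.2% under H3K27me3 on one side and AGAP006070 with neither mark on the other. For the island on 3L from 30846201 to 30856199, AGAP011652 had 45.4% under H3K27me3 and 25.3% under H3K27ac, and AGAP011655 on the other side was wholly under H3K27me3. The remaining pair of the 10 strongest, on 2L from 34035801 to 34045599 and on 3R from 22508401 to 22515999, had H3K27me3 and no H3K27ac on both flanking loci.

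Most distal islands sat in long gaps between loci and shared their gap with others. On the 5 chromosome arms, locus-free gaps made up 98344805 bp, at 47.8 distal islands per Mb. Distal islands covered 12.1% of these bases, H3K27me3 islands of any kind 25.6% and H3K27ac peaks 1.88%. Of 14636 gaps, 1903 held a distal island (13.0%), and their median length was 18419 bp, against 1394 bp in gaps without one. Gaps of 10000 bp or more held 89.1% of the distal islands and 73.4% of the locus-free bases.

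Within classes of gap length, the share of gaps with a distal island was 3.35% at 2000 to 5000 bp, 21.7% at 5000 to 10000 bp, 47.5% at 10000 to 20000 bp, 64.9% at 20000 to 50000 bp and 72.6% at 50000 bp or more. Short gaps have little room for a whole island, and the share of bases under distal islands changed less in the longer classes, at 14.4%, 16.6% and 14.0% in the last 3 of these. A single distal island was found in 905 gaps. The other 998 gaps held 2 or more and together had 80.7% of the distal islands of the arms, and 40 gaps held 10 or more.

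The 5 gaps with the most distal islands were on 3L, 3R and 2R, and none of them held an H3K27ac peak. All were longer than 50000 bp. Few gaps of that length held H3K27ac, at 13.6% of those with a distal island (31 of 228) and 4.71% of those without one. On 3L, the gap from 31981019 to 32068894 and the gap from 31743751 to 31854937 held 22 distal islands each, which covered 41.2% and 44.1% of their bases. Nearly all were small in the first of these, where scores ran between 93 and 296 and lengths between 799 and 2599 bp. In the second, scores ran between 95 and 1119 and lengths between 599 and 6599 bp. Another gap of 3L, from 18622611 to 18768483, held 20 distal islands and no island of another kind, with scores between 75 and 690.

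The gap on 3R from 34413537 to 34574419 was the most fully covered of the 5. It lies between AGAP009480 and AGAP009481, both on the minus strand and both wholly under H3K27me3, and islands of all kinds covered 73.9% of its 160883 bp. Its 20 distal islands had scores between 107 and 969, and 3 longer islands, of 22999, 14799 and 16599 bp, lay between them. On 2R, the gap from 23317412 to 23411284 held 16 distal islands with scores between 96 and 402. It was flanked by AGAP002589, with 86.5% of its length under H3K27me3, and by an unannotated locus with 78.6%. Each of the 3 gaps on 3L had H3K27me3 on only 1 of its flanking loci, and AGAP011713 beside the first carried neither mark.

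**Figure D2:**
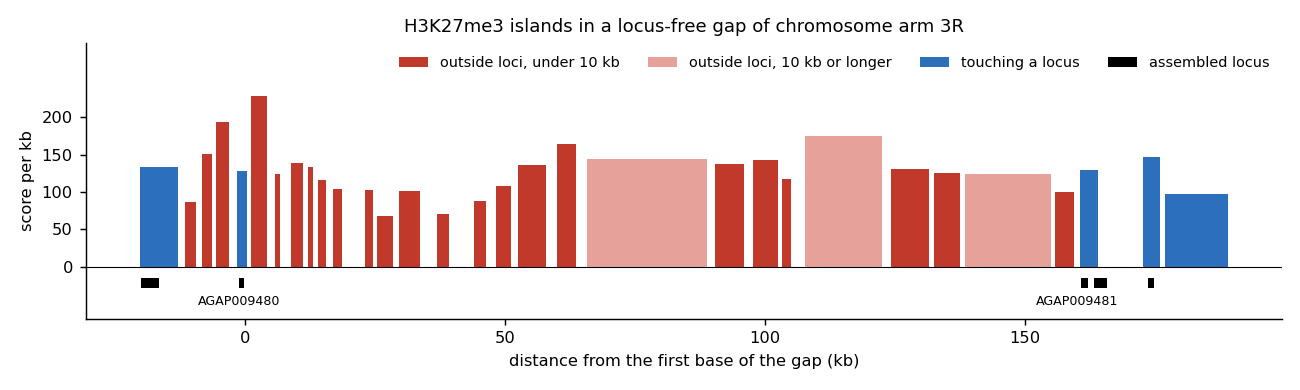
Islands of H3K27me3 in and around the gap on 3R between AGAP009480 and AGAP009481, as distance from the first base of the gap (x axis, kb) and score per kb (y axis). Red boxes are distal islands, pink boxes islands of 10 kb or more outside loci, blue boxes islands that touch a locus and black boxes assembled loci. The 20 red boxes of the gap lie along its whole length, and the 3 pink ones follow from 65.9 kb on.

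Distal islands often formed chains. The next island of any kind was within 2000 bp for 2930 distal islands (61.2%, interval 59.8 to 62.5%), beside a background of 60.0% over all islands, so close neighbours were not particular to distal islands. The shares were 56.4% for islands at a locus start and 57.2% for islands in a locus away from its start. The smallest distance between any 2 neighbouring islands was 801 bp, because the authors' caller joined windows over shorter distances, and 1054 distal islands lay at this smallest distance from the next. When islands within 2000 bp were joined, 1860 distal islands stayed alone (38.8%). Another 1426 (29.8%) were in chains made only of islands outside loci, and 1504 (31.4%) were in chains that reached an island touching a locus.

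The extent of these chains depends on the joining distance. At 1000 bp, 78.0% of distal islands were alone and 7.06% were in a chain that reached a locus. At 5000 bp, 18.0% were alone and 57.7% were in such a chain. The chains at 2000 bp with the most distal islands, named here after their values were seen, ran on 3L from 31796601 to 31992199 with 25 islands, 17 of them distal, and on 2R from 23850601 to 24064399 with 23 islands, 16 of them distal. The chain on 2R was the longest of all, at 213799 bp. Neither held H3K27ac.

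Islands with a close neighbour also had a higher score per kb. Distal islands in a chain at 2000 bp had a median of 107 per kb (interval 105 to 108) and those alone 96.2 (interval 94.5 to 97.6), with median lengths of 2199 and 1799 bp. The same held among islands of like length. Of the 1682 distal islands of 1000 to 2000 bp, the 301 whose next island was under 1000 bp away had a median of 108 per kb (interval 104 to 112). The 276 whose next island was 5000 to 20000 bp away had 88.4 (interval 86.0 to 90.9), and the 91 at more than 20000 bp had 93.2 (interval 86.0 to 98.8). Position relative to loci moved the value less: the median per kb was 98.3 within 1000 bp of a locus and 102 at 20000 bp or more.

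Gaps with a distal island more often adjoined a locus that carried H3K27me3. A locus was counted as carrying a mark where at least 1 bp of it was under a peak. Of the distal islands with a locus on both sides, 3841 of 4784 (80.3%, interval 79.1 to 81.4%) had H3K27me3 on at least 1 of the flanking loci. Counted by gap, this was 75.3% of the gaps with a distal island (interval 73.3 to 77.1%, n = 1975) and 38.98% of the gaps without one (interval 38.2 to 39.8%, n = 14292), beside a background of 43.4% over every gap. Both flanking loci carried the mark for 33.7% of distal islands, and for 30.5% of the gaps with one beside 17.6% of every gap. Neither flanking locus carried either mark for 14.1% of distal islands, and for 18.2% of the gaps with one beside 31.8% of every gap. With the nearest annotated loci taken as flanks, these last shares were 6.84%, 9.28% and 20.5%.

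The difference in H3K27me3 on at least 1 flanking locus was present in each class of gap length from 2000 bp. At 10000 to 20000 bp the share was 81.0% (interval 77.6 to 84.0%, n = 575) in gaps with a distal island and 48.5% (interval 44.6 to 52.4%, n = 635) in gaps without one. At 50000 bp or more it was 72.4% (interval 66.2 to 77.8%, n = 228) with a distal island and 23.5% (interval 15.8 to 33.6%, n = 85) without. Gaps of similar length thus differed by 17.5 to 48.8 percentage points, and the intervals did not overlap in any class from 2000 bp.

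H3K27ac on the flanking loci did not follow the same pattern. At least 1 flanking locus carried it for 19.96% of distal islands, and for 22.1% of the gaps with a distal island, 38.2% of the gaps without one and 36.2% of every gap, the background. With annotated flanking loci the shares were higher, at 35.7% of distal islands, 37.5% of the gaps with one, 50.7% of the gaps without one and 49.1% of every gap. By gap length, it was 25.0% with a distal island (interval 17.4 to 34.5%) and 39.03% without (interval 37.2 to 40.9%) at 2000 to 5000 bp. In each longer class the intervals overlapped, by a narrow margin at 5000 to 10000 bp, with 26.3% in gaps with a distal island and 33.6% without. The shares were 18.9% with a distal island and 19.3% without at 20000 to 50000 bp, and 19.3% with and 12.9% without at 50000 bp or more.

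**Figure D3:**
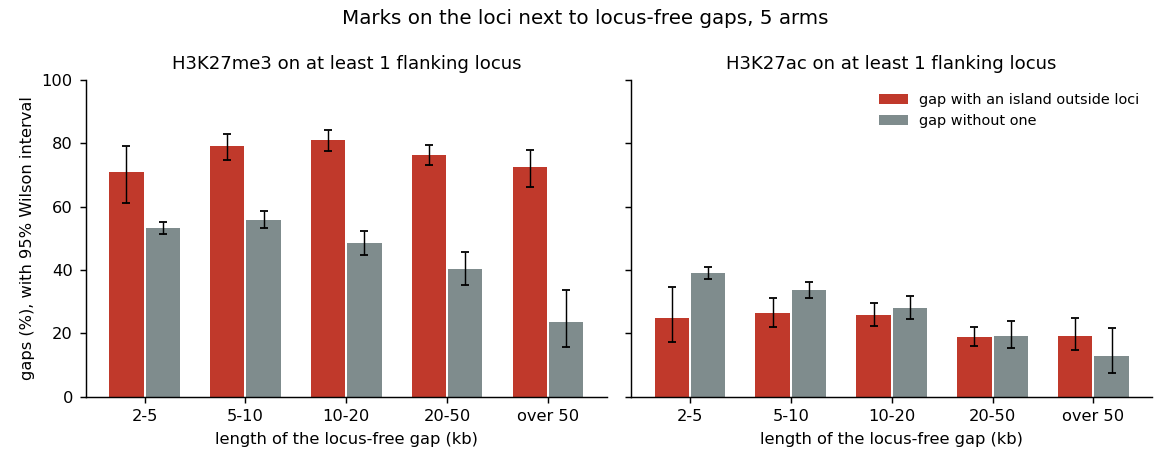
Share of locus-free gaps on the 5 arms (y axis, %, with 95% Wilson intervals) that have H3K27me3 (left) or H3K27ac (right) on at least 1 flanking locus, by gap length (x axis, kb), for gaps with a distal island (red) and without one (grey). The red bars of H3K27me3 stand at 70.8 to 81.0% in all classes, above the grey bars at 23.5 to 55.9%, while for H3K27ac the red bar is the lower one up to 50 kb and the higher one over 50 kb, with overlapping intervals from 5 kb.

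Seen from the genes, annotated loci under H3K27me3 had a distal island next to them more often than other loci. On the 5 arms a distal island lay in an adjoining gap of 917 of the 3229 annotated loci with H3K27me3 alone (28.4%), 106 of 537 with both marks (19.7%), 291 of 4198 with H3K27ac alone (6.93%) and 464 of 4360 with neither (10.6%), and of 14.4% of every annotated locus. Their adjoining gaps differed in length too. Where the gaps on both sides added up to at least 20000 bp, the shares were 79.7% (interval 76.5 to 82.6%, n = 676) with H3K27me3 alone, 81.7% (interval 71.2 to 89.0%, n = 71) with both marks, 61.9% (interval 55.0 to 68.3%, n = 202) with H3K27ac alone and 57.9% (interval 53.4 to 62.3%, n = 473) with neither. Among loci beside long gaps, the lower share of loci with H3K27ac alone than of unmarked loci was thus no longer seen, and the intervals of these 2 groups overlapped.

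Distance from loci varied widely. The nearest locus was a median of 5749.5 bp away (interval 5472 to 6075 bp), with quartiles of 2389 and 12469.75 bp. It was within 1000 bp for 8.85% of distal islands, within 5000 bp for 46.0% and within 20000 bp for 87.7%. The side of the locus made little difference. Of distal islands, 51.0% (interval 49.6 to 52.5%) lay upstream of the start of their nearest locus and 48.9% downstream of its end. On the 5 arms they covered 18.8% of the locus-free bases upstream and 17.8% downstream at 5000 to 10000 bp from a locus. At 20000 to 50000 bp these were 14.3% and 15.8%, so the higher side varied with distance. Gaps between divergent loci held 50.3 distal islands per Mb, gaps between convergent loci 48.9 and gaps between loci in tandem 46.5. The closest distal island, on 2R from 33279401 to 33282999, began 5 bp after an unannotated locus that carried neither mark.

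The farthest distal islands lay in very long gaps. The island on 3R from 23928201 to 23932999, with a score of 623, was 102782 bp from AGAP009025 and was one of 13 distal islands in a gap of 232231 bp. On 2R the island from 52787401 to 52788799 (score 133) was 81983 bp from AGAP004232, and on 3L that from 9561801 to 9562599 (score 84) was 80216 bp from the nearest locus, which was not annotated. The other 2 of the 5 farthest were on UNKN, the joined unplaced sequence, at 80550 and 76079 bp, with scores of 78 and 458.

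By base, cover by distal islands was 0.293% within 500 bp of a locus, 5.69% at 1000 to 2000 bp and 18.3% at 5000 to 10000 bp, and it was 9.24% beyond 50000 bp. The low values near loci follow from the rule, because an island there usually touches the locus and is then not distal. Islands of every kind covered 20.6% of the bases within 500 bp, 28.5% at 5000 to 10000 bp and 16.9% beyond 50000 bp. H3K27ac peaks went the other way, with 6.53% within 500 bp, 0.898% at 5000 to 10000 bp and 0.0222% beyond 50000 bp.

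**Figure D4:**
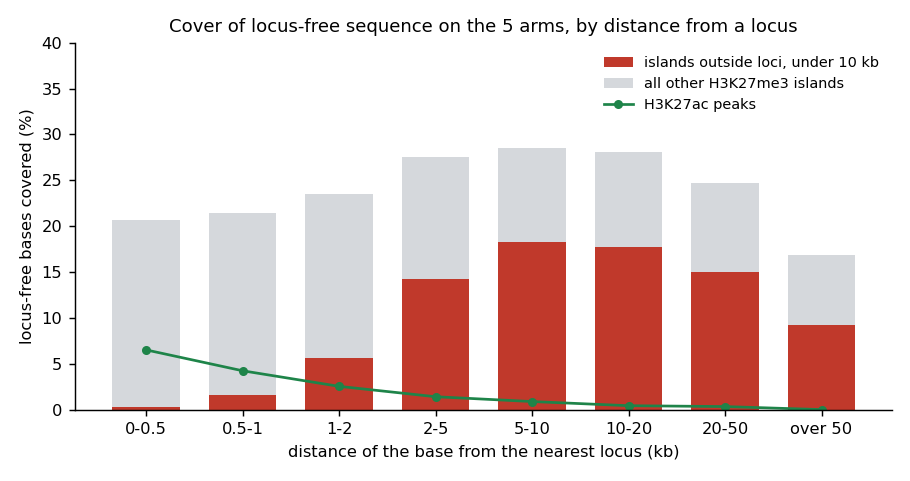
Share of locus-free bases on the 5 arms (y axis, %) under distal islands (red) and under all other H3K27me3 islands (light grey, stacked on the red), with H3K27ac peaks as a green line, by distance of the base from the nearest locus (x axis, kb). The total of the bars stays between 16.9 and 28.5% while the green line falls to 0.0222%.

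Distal islands seldom touched H3K27ac. An H3K27ac peak shared at least 1 bp with 28 of the 4790 distal islands (0.585%, interval 0.405 to 0.844%), with 58 islands at locus starts (1.81%, interval 1.401 to 2.33%) and with 48 in loci away from the start (1.19%, interval 0.901 to 1.58%), beside a background of 1.17% over all islands. The median distance to the nearest H3K27ac peak was 42952 bp (interval 41193 to 44527 bp) for distal islands, 22792 bp at locus starts and 29902 bp in loci away from the start. A peak was within 5000 bp of 7.47% of distal islands, 17.3% of islands at starts and 11.3% of islands elsewhere in loci. H3K27ac peaks are themselves concentrated near loci, so part of this distance follows from the rule. H3K27me3 was called with SICER and H3K27ac with MACS, and mark and caller cannot be told apart.

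Inside the gaps, H3K27ac peaks were found beside distal islands as well. In gaps of 20000 to 50000 bp, 9.47% of those with a distal island (interval 7.44 to 12.0%) and 7.20% of those without one (interval 4.93 to 10.4%) held H3K27ac. At 50000 bp or more these shares were 13.6% (interval 9.75 to 18.7%) and 4.71% (interval 1.85 to 11.5%). The intervals of the 2 kinds of gap overlapped in these classes and in every other class from 2000 bp. Among the 28 islands in contact with H3K27ac the contact was mostly partial, covering between 2.81% and 100% of the island. The longest contact, named here after its values were seen, was on X from 18844401 to 18850599, where 2409 bp of an island of 6199 bp were also under H3K27ac.

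The arms differed little in the density of distal islands, which was 51.7 per Mb of locus-free sequence on 3L, 48.9 on 2L, 48.4 on 2R, 46.4 on X and 43.9 on 3R. On X they were longer, with a median of 2399 bp (interval 2199 to 2599 bp, n = 562) beside 1799 to 1999 bp on the other arms, and they covered 14.1% of the locus-free bases, beside 10.9 to 12.6% on the other arms. As a share of all islands they ranged between 31.6% on 2L (interval 29.9 to 33.3%) and 42.3% on 3L (interval 40.3 to 44.3%).

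Variation within arms was larger than between them, and distal islands were scarce toward the centromere. In bins of 5 Mb, the cover of locus-free bases ran between 0.393% in the last bin of X and 20.9% in its first. The arms 2L and 3L begin at the centromere in this assembly, and 2R, 3R and X end at it. In the 10 Mb nearest the centromere, a length chosen after the values were seen, there were 23.7 distal islands per Mb with a cover of 6.06%, against 56.2 per Mb and 14.3% in the rest of the arms. The cover over these 10 Mb was below that of the rest on each of the 5 arms, at 3.27% and 15.4% on 3L, where the contrast was widest, and at 7.31% and 11.7% on 3R, where it was narrowest. On X it rested on the last bin alone, since the bin of 15 to 20 Mb, within this stretch, had 18.6% and the rest of X 18.4%. On 3R the bin of 45 to 50 Mb had 8.79%, above 6.22% and 6.54% in 2 bins farther out.

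This scarcity was not limited to distal islands, since islands of every kind covered 12.4% of the locus-free bases in these 10 Mb and 30.2% in the rest. In the last bin of X, distal islands numbered 2.38 per Mb and H3K27ac covered 0.921% of all bases, beside 6.54 to 9.02% in the other bins of X. The distal islands near the centromere did not have a lower score per kb: the median was 109 to 115 there and 97.2 to 102 in the rest of the arm, and higher near the centromere on each of the 5 arms. Their median lengths were shorter than in the rest on 3L (1399 and 1799 bp), 2R (1599 and 1999 bp) and 3R (1799 and 1999 bp). On 2L they were equal, and on X longer (2599 and 2199 bp). Score per kb varies with length, and islands of like length were not compared here. The unplaced sequence had 92 distal islands, at 2.40 per Mb, with a median length of 1099 bp (interval 799 to 1399 bp). Repetitive reads, which the paper links to transposons, centromeres and telomeres, were excluded before islands were called. Locus-free bases were counted here whether or not reads could be placed in them. How far this lowers the values near the centromere and on the unplaced sequence was not tested.

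**Figure D5:**
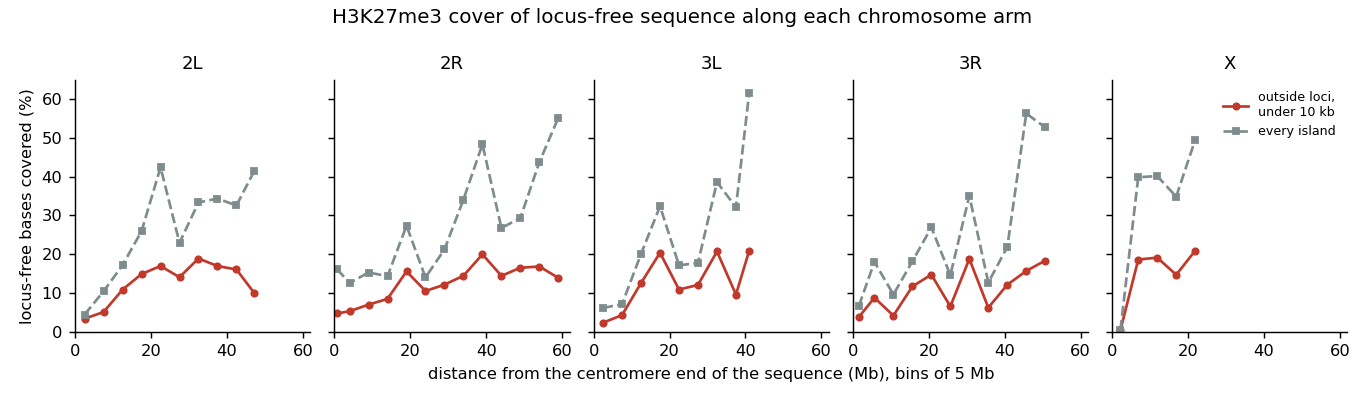
Share of locus-free bases (y axis, %) under distal islands (red circles) and under H3K27me3 islands of every kind (grey squares) in bins of 5 Mb along the 5 arms, by distance from the centromere end of each arm (x axis, Mb). Cover by distal islands is lowest near the centromere on all 5 arms, with 0.393% in the bin of X next to it, and reaches 18.8 to 20.9% in the highest bin of each arm.

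Genes that the study had listed for interactions with pathogens and for insecticide resistance, with its pair of Antennapedia region genes, gave examples next to known genes. These 68 genes lie in 65 loci, and 13 of the loci (20%) had a distal island in an adjoining gap, 37 islands in all. The share was 14.2% of every annotated locus, the unplaced sequence included. By mark, these were 8 of the 30 listed loci with H3K27me3, 3 of the 20 with H3K27ac and 3 of the 18 with neither. A locus with both marks is counted under each. Over every annotated locus, with loci of both marks kept apart, the shares were 28.4% with H3K27me3 alone, 19.7% with both marks, 6.95% with H3K27ac alone and 10.4% with neither. The classes of the listed loci and of every locus are therefore not the same. The listed counts are small, and for H3K27me3 they were near the share of every locus with H3K27me3 alone.

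AGAP004660, of the Antennapedia region of homeotic genes that set segment identity, lies on 2R from 59826776 to 59922386 on the minus strand and had 66.9% of its length under H3K27me3. The gap of 33101 bp upstream of it held 4 distal islands with 100.04 to 164 per kb. The nearest, from 59926801 to 59928599, began 4414 bp from the locus. The largest, from 59945201 to 59955199, was one of the 9 of 9999 bp and had a score of 1043. It lay 22814 bp from AGAP004660 and 488 bp from an unannotated locus with 65.5% of its length under H3K27me3. AGAP004659, the other listed gene of this region, had no distal island in an adjoining gap.

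Immune genes with H3K27me3 included CTL8 (AGAP003625), a C-type lectin, with 91.0% of its length on 2R under the mark and 4 distal islands in the gap of 31412 bp upstream of it. CPB (AGAP006210), a carboxypeptidase B, had 96.1% under the mark and 6 distal islands in a gap of 56603 bp, the nearest of them 1292 bp upstream. Of APL1C (AGAP007033), whose product has leucine-rich repeats and acts in complement-like defence, 32.1% was under the mark, and a single distal island of 1399 bp lay 2250 bp downstream. A single island of 3399 bp lay 1527 bp downstream of the locus that holds NOS, the nitric oxide synthase gene. This locus joins 3 genes and had 9.73% under the mark, and the cover of NOS itself was not measured. These genes were named because a distal island adjoins their locus, and the cover of these loci differed widely.

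Distal islands also adjoined immune genes with H3K27ac. SRPN10 (AGAP005246), a serine protease inhibitor on 2L from 12995901 to 13001496, had 88.9% of its length under H3K27ac and no H3K27me3. The gap of 52415 bp upstream of its start held 5 distal islands with 86.7 to 118 per kb, the nearest of them 3599 bp long, from 13002201 to 13005799, only 704 bp away. REL1 (AGAP009515), a transcription factor of the Toll pathway, had 14.95% under H3K27ac and a single island of 399 bp at 2672 bp upstream. CTL6 (AGAP006267), another C-type lectin, had 20.1% of its length under H3K27ac, 4.44% under H3K27me3 and 6 distal islands in the gap of 34107 bp upstream. GAM1 (AGAP008645), the antimicrobial peptide gambicin, carried neither mark and had 1 distal island, 8629 bp downstream.

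Of the insecticide resistance genes, ACE1 (AGAP001356), the acetylcholinesterase targeted by organophosphates and carbamates, had 42.0% under H3K27me3 and 3 distal islands upstream, in a gap of 41768 bp. They were 999 to 7799 bp long, with 73.1 to 85.1 per kb, which is below the lower quartile of distal islands, 86.8. Kdr (AGAP004707), the voltage-gated sodium channel targeted by pyrethroids, had 1.62% under H3K27me3 and 2 islands of 399 and 799 bp downstream. The cytochrome P450 genes CYP6AF1 (AGAP011028) and CYP6AJ1 (AGAP010966) carried neither mark, and 2 islands and 1 island lay downstream of them, the nearest at 2036 and 1042 bp.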

How the data were processed

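ChIP-seq peaks of H3K27me3 and H3K27ac from midguts, 1 library each, and the merged transcripts of midguts and salivary glands were used. Per the submitters' processing notes, the authors used Bowtie 1.0.0, SICER and MACS 1.4 for ChIP, and TopHat2 2.0.10 and Cufflinks 2.1.1 for RNA. They called peaks against input, and reads that Bowtie found to be repetitive were excluded. The deposited H3K27me3 list gives a score per island, 39 to 23492, that the file does not name and whose relation to input is not given there. The deposited H3K27ac score, 50.02 to 3233.06, was used only in an alternative. Read depth per island was not measured here.

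Overlap was at least 1 bp. Island lengths are the listed end minus the listed start, and each is 1 bp short of a whole number of 200 bp windows. A locus-free gap is a stretch outside all loci and the 200 bp around their starts. Python 3.11.15, numpy 2.4.6 and pandas 2.3.3 were used, with Wilson intervals for shares and order-statistic intervals for medians. Distance and overlap functions were tested on simulated data. Named regions were the 10 highest-scoring and 10 longest distal islands, the 5 farthest from and the 1 closest to a locus, islands at the length limit, the 5 gaps with the most distal islands, and listed genes beside such gaps. The islands and lists were chosen with earlier results of these data known. Sequence, expression and the input were not analysed here.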

Additional observations from a re-analysis of the deposited data

How the results depend on the processing

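With 1 library per mark there is no left-out library, and what depth does to the list of islands was not measured. No paired analysis was possible because each mark has 1 library. The sequence of the islands, whole or in their central part, was not run. Of 44 values under alternatives, 26 stayed within the interval of the reported value (counts of islands: within 1.5 times) and 18 moved. Islands scoring at or above the median score of 248 left 1865 distal islands in place of 4790, with a median length of 3599 bp, 112 per kb, H3K27me3 on a flanking locus for 75.2% and a next island within 2000 bp for 54.5%. Removing UNKN gave 81.5% with H3K27me3 on a flanking locus. Putting an island out only where at least 50% of it was shared gave a median length of 2199 bp, 3895 bp to the nearest locus, 83.4% with H3K27me3 on a flanking locus and 40088 bp to H3K27ac. With 1000 bp around locus starts, the nearest locus was 6243 bp away. Islands under 5000 bp had a median length of 1799 bp and a next island within 2000 bp in 59.5% of cases. H3K27ac peaks at or above their median score lay 66707.5 bp away. Loci marked on at least 50% of their length flanked 66.1% of distal islands, with no share over every gap to set beside it. With annotated flanking loci only, the share with H3K27me3 was 84.8%, and it was 51.3% of every gap. H3K27ac on an annotated flanking locus was at 35.7% in place of 19.96%. The next island was within 1000 bp for 22.0% and within 5000 bp for 82.0%, both distances added after seeing the data. The count of distal islands stayed between 4002 and 6043 under the other alternatives, the lowest with islands closer than 1000 bp merged first and the highest with annotated loci only.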

Other observations

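The density of distal islands differed with the annotation of the flanking loci. Gaps between 1 annotated and 1 unannotated locus held 54.6 distal islands per Mb, against 43.2 per Mb both in gaps between 2 annotated loci and in gaps between 2 unannotated loci. Gap lengths differed as well, with medians of 3742 bp for the mixed gaps, 1240 bp between annotated loci and 1960.5 bp between unannotated loci.

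The highest score per kb of any distal island, chosen after the values were seen, was 531, on X from 1723601 to 1724199. This island of 599 bp lay 11940 bp from AGAP001493, which was wholly under H3K27me3, and 10227 bp from AGAP000102, which had no H3K27me3 and 7.75% of its length under H3K27ac.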
